A study of Mus musculus with 6 samples.

Results

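Potassium channel genes encode the pore-forming and auxiliary subunits of channels that let potassium ions leave or enter the cell along their gradient. Voltage-gated, inward rectifier and two-pore-domain pores set and reset the membrane potential, calcium-activated pores open when cytosolic calcium rises, and auxiliary subunits bind the pores and alter their gating. In secretory and duct epithelia, potassium exit through such channels supplies the electrical drive for chloride and fluid secretion and for calcium entry.

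The genes were all protein-coding genes whose symbol begins with Kcn followed by letters and a digit, which gave 93 of the 41388 genes in the tables, and those with a mean of 1 CPM or more (counts per 1000000 counts of the library) in any group were taken as expressed, which left 19. RNA was sequenced from KP2 cells, a low-passage pancreatic cancer line made from a KPC mouse (a genetic model of pancreatic cancer) of the C57BL/6J strain and grown in DMEM with serum and antibiotics. The 3 groups of 2 libraries each were Irak4 KO + rescue cells, Irak4 KO cells and wild-type cells. The KO was made by infection with plentiCRISPR vectors carrying sgRNAs against Irak4, so the rescue cells carry it too, while the rescue construct is not described in the labels, nor is it stated whether the KO cells are 1 clone or whether wild-type cells received a vector. IRAK4 is a kinase of Toll-like and interleukin-1 receptor signalling, and the comparisons asked how far the channel genes differ with its loss and after the rescue. The labels do not say whether the replicates are separate cultures, so p-values rest on a spread among libraries that may be only technical.

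Totals ranged from 7605328 to 11505983 counts per library. Irak4 itself stood at 492 and 211 normalised CPM in the rescue libraries, 20.4 and 21.8 in the KO libraries and 37.9 and 37.6 in the wild-type libraries, and its difference between KO and wild type did not pass the test (edgeR quasi-likelihood test, log2 fold change -0.84, SE 0.33, adjusted p = 0.057). That test takes its spread from all groups, and the rescue libraries differed widely from each other. Both KO libraries lay below both wild-type libraries. The keratin genes Krt8, Krt18 and Krt19 each had at least 1093 normalised CPM in every library, whereas Epcam, a defining epithelial adhesion gene, had between 0 and 0.119 normalised CPM. Cdh1, another epithelial adhesion gene, had 141 and 97.6 normalised CPM in the rescue, 176 and 233 in the KO and 363 and 393 in wild type. The summed level of 6 epithelial markers was 4507 and 5319 normalised CPM in the rescue, 3671 and 3792 in the KO and 6670 and 6412 in wild type. Of the immune and fibroblast markers, Lyz2 and Cd3e (immune) and Dcn and Lum (fibroblast) had 0 counts in all 6 libraries. Others of these lists were detected in every library, Cd68 (immune) at 3.93 to 4.57 and Col1a1 (fibroblast) at 7.45 to 20.5 normalised CPM. Summed levels stayed at or below 4.82 normalised CPM for 5 immune, 8.07 for 6 neuronal and 22.4 for 5 fibroblast markers. The 4 endothelial markers summed to 38.0 and 14.8 normalised CPM in the rescue, 16.0 and 30.6 in the KO and 4.63 and 5.37 in wild type, most of it Cdh5. Kdr of the same list went the other way, with 1.54 and 1.66 in wild type and at most 0.133 in any rescue or KO library. Pecam1 and Tie1 had at most 2 counts in any library. In bulk RNA, fewer cells that express a gene and less of its RNA per cell cannot be told apart.

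Of the 93 genes, 26 had 0 counts in all 6 libraries, 48 had counts but stayed below 1 CPM in every group, and 19 reached it. The 19 comprised 8 of 40 voltage-gated pore genes, 3 of 8 calcium- or sodium-activated pore genes, 3 of 14 two-pore-domain genes, 5 of 16 auxiliary subunit genes and 0 of 15 inward rectifier genes. Kcnip4 lay just outside the threshold with a deposited mean of 0.872 CPM in the KO. Of the 19, 10 reached 1 CPM in all 3 groups, 5 in 2 groups and 4, among them Kcnh7, Kcnk7 and Kcnq1, in wild type alone. Entry through a single group favours genes that differ between groups without forcing a difference. Kcnk7 entered so with deposited means of 0.967, 0.981 and 1.18 CPM in the rescue, the KO and wild type. Counts over the 19 therefore describe the expressed set and say nothing of the other 74.

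**Figure D1:**
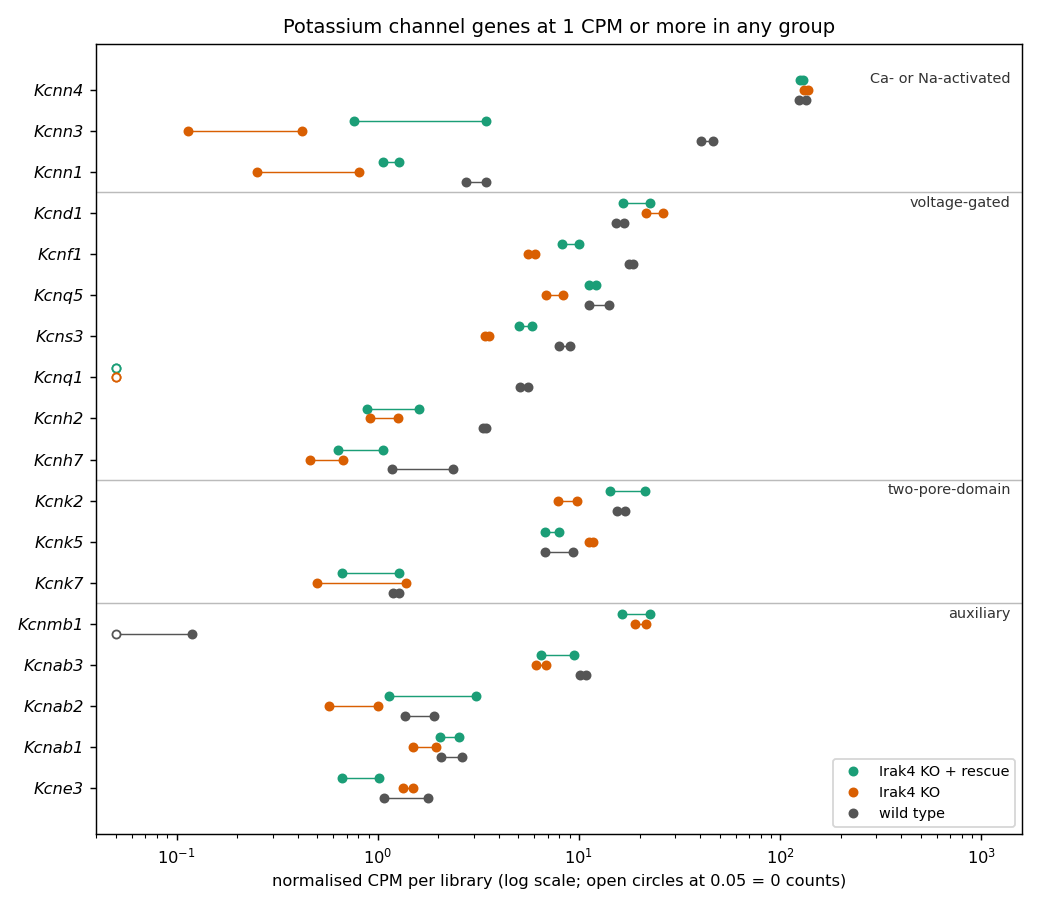
Normalised CPM (log scale) of expressed potassium channel genes in each library, grouped by role, with Irak4 KO + rescue, Irak4 KO and wild type drawn from top to bottom within each gene; each point is a library, a line joins the 2 libraries of a group, and open circles mark 0 counts. Kcnn4 lies between 123 and 138 normalised CPM in all 6 libraries, Kcnmb1 is near 0 only in wild type, and Kcnn3 and Kcnq1 are high only in wild type.

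Kcnn3 and Kcnq1 were lost in the KO, the auxiliary subunit gene Kcnmb1 was gained, and the most abundant channel gene, Kcnn4, passed no test. The statistical filter on low counts passed 17 of the 19, and Kcnh7 was among those left out. In the KO against wild type 2 of these 17 (11.8%) were called higher and 9 (52.9%) lower at an adjusted p under 0.05, where 23.2% and 23.5% of the 12339 genes tested were called higher and lower. The 9 include Kcnq1, which entered the expressed set through wild type alone, and the 17 also include Kcnk7, which entered in the same way and was not called. The 2 include Kcnmb1, which reached 1 CPM in the rescue and the KO but not in wild type, and the 9 include Kcnn3. Both were known beforehand as extremes of these data, so their calls are no independent support. The median log2 fold change over the 17 was -0.72, beside 0.01 over all genes tested. In the rescue against the KO 3 (17.6%) were called higher and 0 lower by edgeR, against 8.35% and 5.88% of all genes. The 3 include Kcnn3. Kcnq1 had 0 counts in both of these groups, so it could not be called there, although it stays among the 17 and in their median. DESeq2 also called 0 lower, and 1 gene (Kcnk5) was lower at an unadjusted p under 0.05. In the rescue against wild type 1 (5.88%) was called higher and 6 (35.3%) lower, against 10.2% and 12.0%. Here the 1 is Kcnmb1 and the 6 include Kcnn3 and Kcnq1, so the same limits hold. The median log2 fold changes were 0.30 in the rescue against the KO and -0.34 in the rescue against wild type, beside -0.0037 and 0.01 over all genes. Each pair of comparisons shares a group of libraries and they are not independent of each other.

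**Figure D2:**
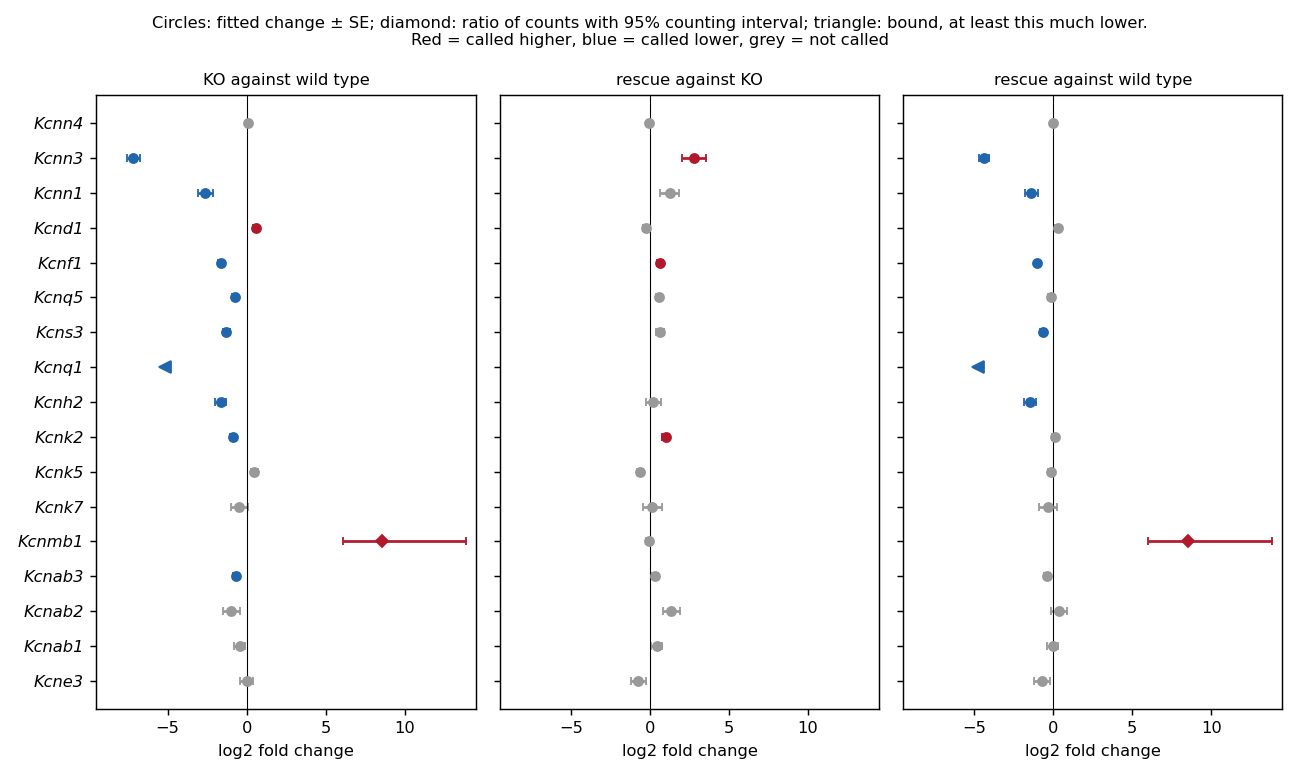
Log2 fold change of the 17 tested potassium channel genes in the KO against wild type (left), the rescue against the KO (middle) and the rescue against wild type (right). Kcnq1 is not drawn in the middle panel, where both groups held 0 counts. Circles are fitted changes with SE, diamonds the ratio of counts with its 95% counting interval where the 2 wild-type libraries held 1 count, and triangles a bound of at least 36.6-fold (KO) or 27.2-fold (rescue) lower where the group held 0 counts; red and blue mark genes called higher and lower.

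Of the 3 calcium-activated pore genes tested, 2 were called lower in the KO against wild type and 1 passed no test. Over all genes tested, 23.5% were called lower, and 1 of the 2 is Kcnn3, known beforehand as lost. Kcnn4 encodes the intermediate-conductance channel that calmodulin opens when calcium rises. It had 126 and 130.2 normalised CPM in the rescue, 138 and 132 in the KO and 134 and 123 in wild type, so wild type overlapped both other groups. Its log2 fold change was 0.07 in the KO against wild type (95% interval -0.11 to 0.25, adjusted p = 0.53) and -0.07 in the rescue against the KO (95% interval -0.26 to 0.11, adjusted p = 0.59). Per kilobase of transcript it was the highest of the 93 genes in every group, at 63.0 ± 1.46, 66.3 ± 2.06 and 63.3 ± 3.70 normalised CPM per kilobase in the rescue, the KO and wild type (SD, n = 2 each). Its share of the summed level per kilobase of all 93 was 70.6% and 68.5% in the rescue, 74.0% and 71.9% in the KO and 65.4% and 63.6% in wild type.

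Kcnn3 encodes a small-conductance calcium-activated channel subunit, known in neurons for the slow pause after an action potential. It had 6 and 26 counts in the rescue libraries, 5 and 1 in the KO libraries and 391 and 414 in the wild-type libraries, or 0.761 and 3.46, 0.418 and 0.115, and 46.4 and 40.5 normalised CPM. Wild type stood far above both other groups, and the second rescue library was the highest of the other 4. The log2 fold change was -7.16 in the KO against wild type (SE 0.42, adjusted p = 5.1e-07) and -4.37 in the rescue against wild type (SE 0.32, adjusted p = 3.1e-06). Kcnn3 was called higher in the rescue than in the KO, with a log2 fold change of 2.79 (SE 0.76, adjusted p = 0.033), from 32 counts against 6. That call was lost without the second rescue library (log2 fold change 1.35, adjusted p = 0.40), without either KO library and without either wild-type library. Per kilobase Kcnn3 ranked second of the 93 genes in wild type, at 5.88 ± 0.57 (SD, n = 2), and number 27 in the KO, at 0.036 ± 0.029. The 6 neuronal markers summed to 1.40 and 2.13 normalised CPM in the rescue, 1.84 and 2.29 in the KO and 8.07 and 6.64 in wild type, where Nefl alone gave 5.22 and 4.20, against 0 to 0.400 in the other libraries. Their part in the Kcnn3 result was not tested.

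Kcnn1, another small-conductance subunit gene, had 1.27 and 1.07 normalised CPM in the rescue, 0.251 and 0.802 in the KO and 3.44 and 2.74 in wild type, with no overlap between the 3 groups. It fell by 2.62 on the log2 scale in the KO against wild type (SE 0.47, adjusted p = 8.9e-04). It also fell by 1.38 in the rescue against wild type (SE 0.42, adjusted p = 0.037), a call lost without any 1 of the rescue or wild-type libraries. The rescue against the KO, from 10 and 8 counts against 3 and 7, did not pass the test (log2 fold change 1.24, SE 0.59, adjusted p = 0.18). The remaining genes of this class were at or near 0. Kcnn2 and Kcnma1, the pore of the large-conductance BK channel, had 0 counts in all 6 libraries, where 3 counts would be 0.251 to 0.400 normalised CPM. Kcnt1, Kcnt2 and Kcnu1 had at most 6 counts in any library.

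The auxiliary gene Kcnmb1 showed the opposite pattern to Kcnn3. It encodes the beta subunit of the BK channel, best known from smooth muscle, where it raises the calcium sensitivity of the pore. It had 129 and 170 counts in the rescue libraries and 259 and 165 in the KO libraries, against 1 and 0 in the wild-type libraries. These were 16.4 and 22.6 normalised CPM in the rescue, 21.6 and 18.9 in the KO and 0.119 and 0 in wild type, so both edited groups lay apart from wild type and overlapped each other. The ratio of KO to wild type was 382, with a 95% counting interval of 68.2 to 15136 (edgeR quasi-likelihood test, adjusted p = 4.5e-07), and that of rescue to wild type 362, with an interval of 64.5 to 14360 (adjusted p = 5.7e-07). Between the rescue and the KO the log2 fold change was -0.06 (95% interval -0.46 to 0.33, adjusted p = 0.84). Per kilobase Kcnmb1 ranked second of the 93 genes in the rescue and in the KO, at 4.65 ± 1.06 and 4.84 ± 0.46, and number 41 in wild type, at 0.014 ± 0.020 (SD, n = 2 each).

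Kcnmb1 was detected without the pore gene it is known to partner, since Kcnma1 had 0 counts in every library. Kcnmb2 and Kcnmb3 also had 0 counts in every library, and Kcnmb4 had at most 2 in any. Kcnmb1 lies on the plus strand of chromosome 11 (33963013 to 33973641, GRCm38) within Kcnip1, another auxiliary gene, on the opposite strand, and shares no exon with it. Kcnip1 had 1 count in the second rescue library, 1 in the first KO library and 0 in the others. The smooth muscle genes Myh11, Cnn1, Des, Synpo2 and Actg2 stayed at or below 0.391 normalised CPM in every library. Acta2 had 1.78 and 1.46 normalised CPM in the rescue, 1.25 and 1.38 in the KO and 0.356 and 0.684 in wild type, and Smtn, which made up nearly all of the 7-gene sum, was lower in the KO (205 and 179.8) than in the rescue (333 and 548) or wild type (629.6 and 525). The 7 genes summed to 335 and 551 normalised CPM in the rescue, 206 and 181 in the KO and 631 and 527 in wild type, and their part in the Kcnmb1 result was not tested.

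The 250 bases upstream of the annotated RefSeq start (GRCm38.p6, plus strand for each) are shown for the gained gene Kcnmb1 (chr11:33962763-33963012), the lost gene Kcnn3 (chr3:89519914-89520163) and the most abundant gene Kcnn4 (chr7:24370013-24370262), read 5′ to 3′, with each CG dinucleotide in capitals.
Kcnmb1: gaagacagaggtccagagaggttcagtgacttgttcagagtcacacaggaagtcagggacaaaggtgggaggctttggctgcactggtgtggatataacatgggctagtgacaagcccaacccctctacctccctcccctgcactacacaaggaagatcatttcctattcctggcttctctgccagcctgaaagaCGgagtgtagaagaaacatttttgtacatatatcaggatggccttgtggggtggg
Kcnn3: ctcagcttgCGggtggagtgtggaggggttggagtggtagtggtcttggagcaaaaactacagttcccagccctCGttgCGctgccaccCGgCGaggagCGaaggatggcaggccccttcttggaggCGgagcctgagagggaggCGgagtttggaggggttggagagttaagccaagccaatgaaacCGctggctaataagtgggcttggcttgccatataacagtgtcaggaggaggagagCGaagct
Kcnn4: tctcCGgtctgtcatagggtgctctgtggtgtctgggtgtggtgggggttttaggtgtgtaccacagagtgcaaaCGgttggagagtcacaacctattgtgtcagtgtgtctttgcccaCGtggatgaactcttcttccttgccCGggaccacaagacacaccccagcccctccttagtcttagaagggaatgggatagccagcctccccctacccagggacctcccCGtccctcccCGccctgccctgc

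The Kcnmb1 window held 1 CG dinucleotide, the Kcnn3 window 10 and the Kcnn4 window 6, where the median over 32851 mouse promoters of the same length was 6. A count of 1 or fewer occurred in 18.8% of those promoters and of 10 or more in 37.8%. Neither strand of the 3 windows matched TGANTCA (the AP-1 motif) or the CArG box, which occurred in 6.75% and 1.47% of all promoters. Of the 19 expressed genes 15 had an entry in the table, with 26 windows, and 2 of these windows held TGANTCA (Kcne3, Kcnk2) and 0 the CArG box. E-boxes (CANNTG) were in 17 of the 26 windows and in 66.2% of all promoters. These matches describe letters in a window of 250 bases and not binding.

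**Figure D3:**
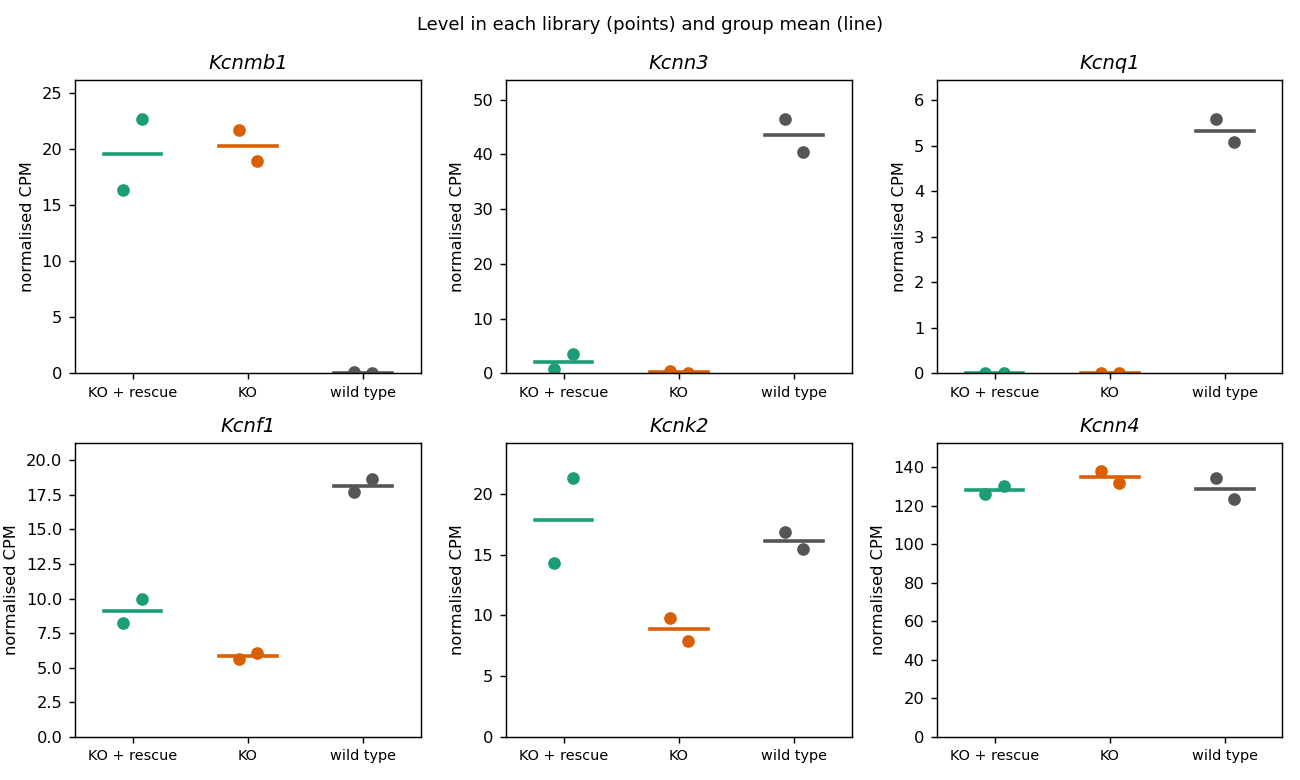
Normalised CPM of Kcnmb1, Kcnn3, Kcnq1, Kcnf1, Kcnk2 and Kcnn4 in each library (points) with the group mean (line), for Irak4 KO + rescue, Irak4 KO and wild type from left to right. Kcnmb1 is at 16.4 to 22.6 in the rescue and the KO and near 0 in wild type, Kcnn3 and Kcnq1 run the other way, Kcnf1 and Kcnk2 are lowest in the KO, and Kcnn4 overlaps between wild type and both other groups.

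Of the 6 voltage-gated pore genes tested, 5 were called lower and 1 higher in the KO against wild type. Over all genes tested, 23.5% were called lower and 23.2% higher. The 5 include Kcnq1, which entered the expressed set through wild type alone. Kcnq1, which encodes a channel of cardiac muscle and of epithelia that secrete or absorb potassium, (chromosome 7, 143106362 to 143427042) had 0 counts in both rescue libraries and both KO libraries, against 47 and 52 in the wild-type libraries (5.58 and 5.08 normalised CPM). With a floor of 3 counts over the group, it was at least 27.2-fold lower in the rescue (adjusted p = 1.0e-04) and at least 36.6-fold lower in the KO (adjusted p = 2.8e-05) than in wild type. Its antisense RNA Kcnq1ot1, whose exon overlaps the gene, had 655 and 681 counts in the rescue, 750 and 449 in the KO and 921 and 846 in wild type. The next protein-coding gene at higher coordinates, Cdkn1c, had 1 and 1 counts in the rescue, 2 and 1 in the KO and 16 and 10 in wild type. On the other side Trpm5 had 3 and 1 counts in the rescue, 0 and 2 in the KO and 1 and 3 in wild type. Kcne3, an auxiliary subunit that holds the KCNQ1 pore open in epithelia, had 1.01 and 0.666 normalised CPM in the rescue, 1.34 and 1.49 in the KO and 1.78 and 1.07 in wild type, and its difference between KO and wild type did not pass the test (log2 fold change 0.00, 95% interval -0.90 to 0.91, adjusted p = 0.99), changing sign under other settings. Kcne1 had 0 counts in every library, and Kcne2 had 2 and 1 in the rescue and 0 elsewhere.

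Kcnq5, the other expressed gene of that subfamily and a subunit of the slow M-type current of neurons and smooth muscle, had 11.2 and 12.1 normalised CPM in the rescue, 8.36 and 6.88 in the KO and 11.2 and 14.1 in wild type. The KO libraries were the lowest of the 6, and the rescue lay beside wild type. It fell by 0.72 on the log2 scale in the KO against wild type (SE 0.18, adjusted p = 0.0073), a call lost without the second KO library (adjusted p = 0.057) or the second wild-type library. The log2 fold change was 0.60 in the rescue against the KO (SE 0.19, adjusted p = 0.058).

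Kcnf1 and Kcns3 encode modulatory subunits that form no channel of their own and are known to assemble with other voltage-gated pores. Kcnf1 had 8.24 and 9.99 normalised CPM in the rescue, 5.60 and 6.07 in the KO and 17.7 and 18.7 in wild type, so the 3 groups stood apart with the rescue between the others. It fell by 1.64 on the log2 scale in the KO against wild type (SE 0.17, adjusted p = 2.4e-05) and by 1.00 in the rescue against wild type (SE 0.17, adjusted p = 0.0014). In the rescue against the KO it rose by 0.65 (SE 0.19, adjusted p = 0.043), a call that was lost without the second rescue library, without either KO library, without either wild-type library and with library totals in place of TMM scaling. Kcns3 had 5.83 and 5.06 normalised CPM in the rescue, 3.43 and 3.55 in the KO and 7.96 and 8.99 in wild type, again with the rescue in between. It fell by 1.28 on the log2 scale in the KO against wild type (SE 0.21, adjusted p = 5.3e-04). In the rescue against wild type it fell by 0.64 (SE 0.21, adjusted p = 0.047), but that call was lost without any 1 of the 6 libraries. Its rescue against KO difference did not pass the test (log2 fold change 0.645, SE 0.235, adjusted p = 0.089).

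Kcnh2 encodes the hERG channel, the delayed rectifier that ends the cardiac action potential. It had 0.888 and 1.60 normalised CPM in the rescue, 0.919 and 1.26 in the KO and 3.44 and 3.32 in wild type, so wild type was above both other groups, which overlapped. It fell by 1.65 on the log2 scale in the KO against wild type (SE 0.36, adjusted p = 0.0031), without the first KO library adjusted p = 0.055. It fell by 1.44 in the rescue against wild type (SE 0.38, adjusted p = 0.019), a call lost without the first rescue library or either wild-type library. Kcnh7, a relative of Kcnh2, was not tested and had 5 and 8 counts in the rescue, 8 and 4 in the KO and 20 and 12 in wild type.

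Kcnd1, which encodes a rapidly inactivating A-type channel, was the 1 voltage-gated gene that rose. It had 22.4 and 16.5 normalised CPM in the rescue, 21.5 and 26.0 in the KO and 15.2 and 16.7 in wild type, with the KO libraries above wild type and the rescue overlapping both. Its log2 fold change in the KO against wild type was 0.56 (SE 0.16, adjusted p = 0.015). The call was lost without the second KO library or either wild-type library. With all libraries the rescue against the KO did not pass the test (log2 fold change -0.27, SE 0.16, adjusted p = 0.28). Nor did the rescue against wild type (0.29, SE 0.17, adjusted p = 0.26). Without the first rescue library Kcnd1 was called lower in the rescue than in the KO, and without the second it was called higher in the rescue than in wild type.

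Of the 3 tested genes of the two-pore-domain class, known for background leak channels, 1 (33.3%) was called lower in the KO against wild type. Over all genes tested the share was 23.5%. Kcnk2 encodes a leak channel opened by membrane stretch and lipids. It had 14.3 and 21.3 normalised CPM in the rescue, 9.78 and 7.91 in the KO and 16.9 and 15.4 in wild type. The KO libraries were the lowest, and the rescue libraries spanned the wild-type values. Kcnk2 fell by 0.85 on the log2 scale in the KO against wild type (SE 0.20, adjusted p = 0.0047) and rose by 0.99 in the rescue against the KO (SE 0.20, adjusted p = 0.011), while the rescue against wild type did not pass the test (log2 fold change 0.14, 95% interval -0.28 to 0.56, adjusted p = 0.64). The rise over the KO was lost without the second KO library (adjusted p = 0.098), where the log2 fold change was 0.86.

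Kcnk5 encodes a leak channel that opens at alkaline pH and is known from bicarbonate-handling epithelia. It had 7.99 and 6.79 normalised CPM in the rescue, 11.2 and 11.8 in the KO and 6.77 and 9.38 in wild type, the reverse order to Kcnk2. Neither difference passed the test, with a log2 fold change of 0.49 in the KO against wild type (95% interval 0.07 to 0.91, adjusted p = 0.053) and -0.63 in the rescue against the KO (95% interval -1.07 to -0.19, adjusted p = 0.057). Without the first or the second rescue library or the second wild-type library Kcnk5 was called higher in the KO, and without the first rescue library it was called lower in the rescue than in the KO. Kcnk7 had between 0.501 and 1.38 normalised CPM in the 6 libraries, and its groups overlapped.

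The beta subunits of voltage-gated channels, encoded by Kcnab1, Kcnab2 and Kcnab3, are cytosolic oxidoreductase-like proteins that attach to pore subunits. Kcnab3 had 6.47 and 9.46 normalised CPM in the rescue, 6.10 and 6.88 in the KO and 10.8 and 10.1 in wild type, with wild type highest. It fell by 0.69 on the log2 scale in the KO against wild type (SE 0.21, adjusted p = 0.016), a call lost without the first KO library, without either wild-type library and with DESeq2 (adjusted p = 0.067). Kcnab2 had 1.14 and 3.06 normalised CPM in the rescue, 1.00 and 0.573 in the KO and 1.90 and 1.37 in wild type, so its rescue libraries differed more from each other than the KO and wild-type means did. Its log2 fold change in the rescue against the KO was 1.34 (SE 0.54, adjusted p = 0.12), and without the first rescue library it was called higher. Kcnab1 had 2.03 and 2.53, 1.50 and 1.95, and 2.61 and 2.05 normalised CPM in the rescue, the KO and wild type, and passed no test, with a log2 fold change of -0.44 in the KO against wild type (95% interval -1.19 to 0.31, adjusted p = 0.32).

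**Figure D4:**
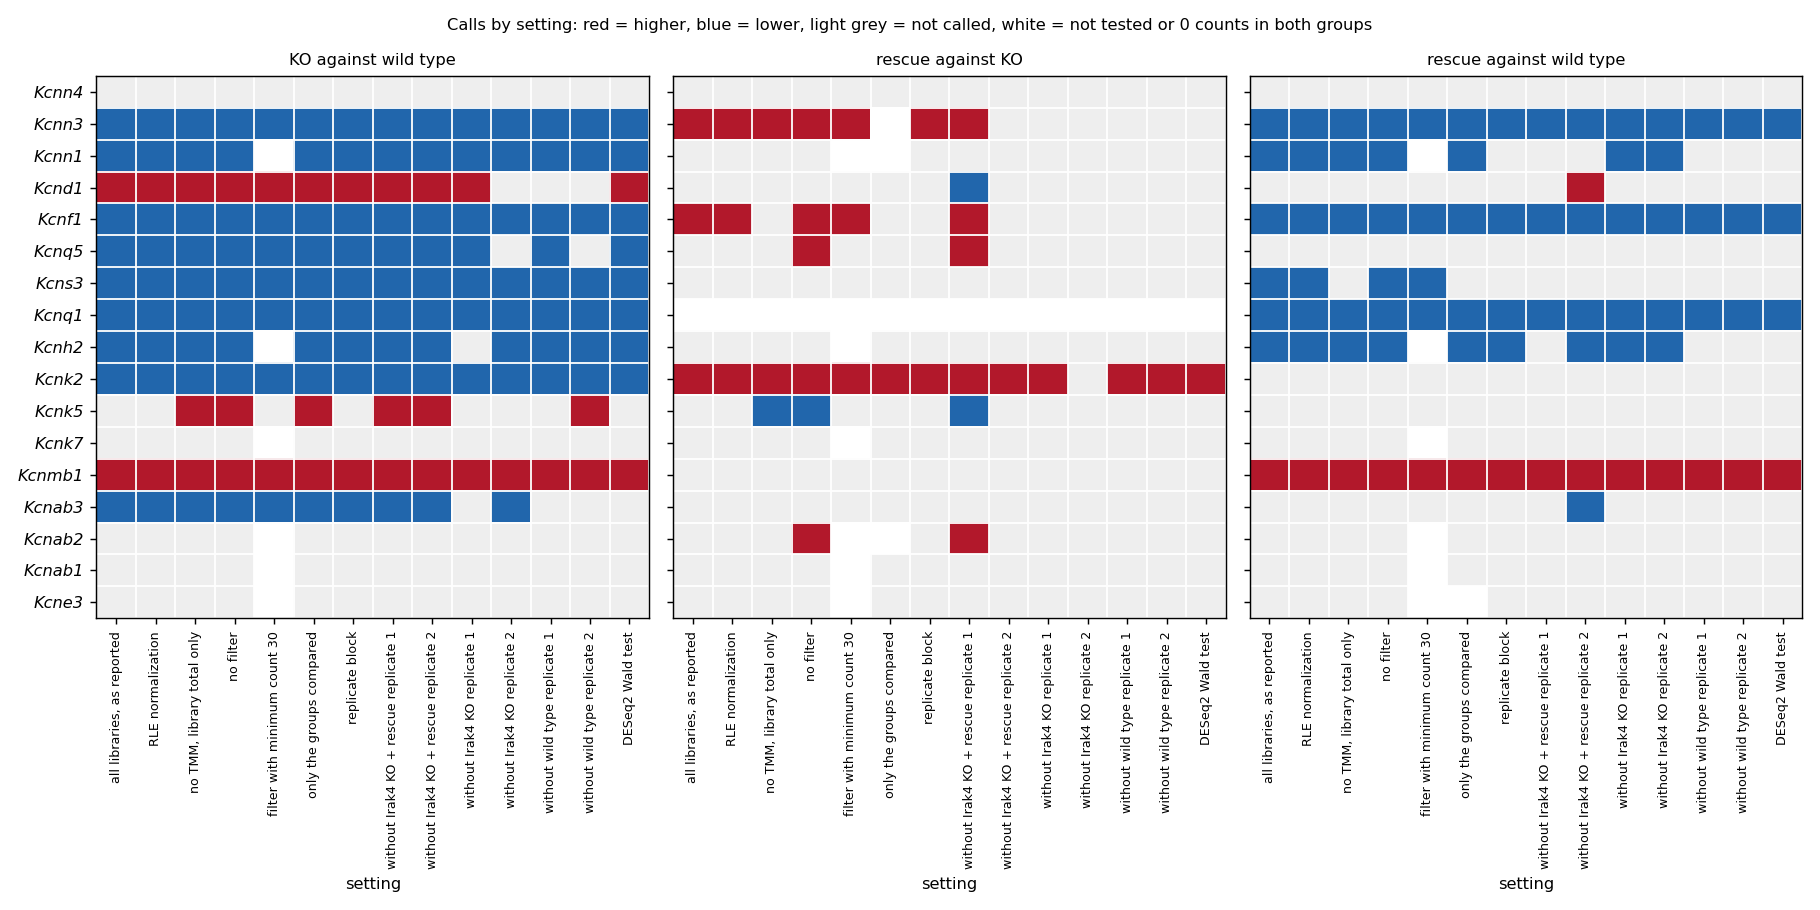
Calls for the 17 tested potassium channel genes at an adjusted p under 0.05 in each comparison (panels) under each setting (columns), including leaving out each library; red is higher, blue lower, light grey not called, and white not tested or 0 counts in both groups. In the KO against wild type Kcnmb1, Kcnn3, Kcnq1, Kcnf1, Kcns3 and Kcnk2 were called under all 13 other settings, and in the rescue against wild type Kcnmb1, Kcnn3, Kcnq1 and Kcnf1 were.

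Compared by role, the summed normalised CPM of the 40 voltage-gated genes was 48.9 in the rescue, 43.9 in the KO and 68.5 in wild type, as means of 2 libraries. That of the 16 auxiliary genes was 33.9 and 31.7 in the rescue and the KO against 17.0 in wild type, where Kcnmb1 alone accounted for 19.5, 20.3 and 0.059. The 14 two-pore-domain genes summed to 27.1, 22.2 and 26.9 in the same order. The 15 inward rectifier genes, which hold the resting potential in many cell types, summed to 1.62, 1.06 and 1.57. The 8 calcium- or sodium-activated genes summed to 132, 136 and 175, of which Kcnn3 gave 2.11, 0.266 and 43.4. Over all 93 genes the sum per library was 233 and 254 in the rescue, 237 and 233 in the KO and 296 and 283 in wild type, so the wild-type libraries were the highest. Kcnn3, a known extreme, alone gave 46.4 and 40.5 of the wild-type sums, and at most 3.46 in any other library.

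The genes around the channels were counted in lists of partners, pumps and calcium genes. Of 9 tested channel partners outside the name rule 1 was called higher and 4 lower in the KO against wild type, where 23.2% and 23.5% of all genes tested were called. Among those that fell were Dlg1, a scaffold that clusters channels at the membrane (210.2 ± 16.3 normalised CPM in the rescue, 156 ± 9.0 in the KO and 229 ± 5.43 in wild type, with a log2 fold change of -0.56, SE 0.09 and adjusted p = 3.7e-04), and Lrrc55, a BK channel gamma subunit gene (log2 fold change -1.78, SE 0.38, adjusted p = 0.00255). Lrrc55 was low throughout, at 2.08 ± 0.07 normalised CPM in the rescue, 0.72 ± 0.05 in the KO and 2.53 ± 0.12 in wild type. Of 21 tested pumps, cotransporters and other potassium-permeable channels 5 rose and 2 fell, of which the first is near the 23.2% of all genes and the second below the 23.5%. Wnk4, a kinase that regulates potassium and chloride transport, had 11.8 ± 5.75, 41.0 ± 13.0 and 11.4 ± 0.11 normalised CPM in the rescue, the KO and wild type, and its log2 fold change was 1.84 in the KO against wild type (SE 0.26, adjusted p = 2.1e-04) and -1.77 in the rescue against the KO (SE 0.27, adjusted p = 0.0032).

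Of 17 tested calcium entry and release genes 4 rose and 5 fell in the KO against wild type, near the 23.2% and 23.5% of all genes. The plasma membrane calcium pump gene Atp2b4 had 0.653 ± 0.21 normalised CPM in the rescue, 0.469 ± 0.31 in the KO and 15.1 ± 5.34 in wild type (SD, n = 2 each), a log2 fold change of -5.06 in the KO (SE 0.42, adjusted p = 5.8e-06) and -4.50 in the rescue (SE 0.42, adjusted p = 2.3e-05), both against wild type. The calcium-permeable channel gene Trpv4 had 2.62 ± 1.38, 1.41 ± 0.37 and 10.4 ± 0.16 normalised CPM in the same order (in the KO against wild type, a log2 fold change of -2.84, SE 0.31, adjusted p = 3.6e-05). The mechanically gated channel gene Piezo2 had 156 ± 43.3 in the rescue, 74.6 ± 3.58 in the KO and 203 ± 23.6 in wild type (log2 fold change -1.44 in the KO against wild type, SE 0.15, adjusted p = 3.2e-05), and it rose by 1.06 in the rescue against the KO (SE 0.16, adjusted p = 0.0027). The median log2 fold changes of the 3 lists in the KO against wild type were -0.23, 0.02 and -0.03, beside 0.01 over all genes tested. Leaving out 1 library gave 0 to 2 partners higher and 3 to 5 lower, 4 to 6 pumps and cotransporters higher and 0 to 5 lower, and 1 to 4 calcium genes higher and 5 to 6 lower.

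Further calls of the KO against wild type concerned Cntnap1, an axonal adhesion gene (log2 fold change -0.97, SE 0.17, adjusted p = 7.0e-04), and Atp1b3, a beta subunit gene of the sodium-potassium pump (0.55, SE 0.10, adjusted p = 7.3e-04). For the rescue against the KO, 2 of 9 partners were called higher and 0 lower, 1 of 21 pump or cotransporter genes higher and 6 lower, and 2 of 17 calcium genes higher and 1 lower, where 8.35% of all genes were called higher and 5.88% lower. The 0 partners called lower by edgeR were also 0 at an unadjusted p under 0.05 and 0 by DESeq2. Dlg1 rose by 0.43 on the log2 scale (SE 0.09, adjusted p = 0.011), a call lost without the second KO library. Atp1b1, another pump beta subunit gene, had 42.6 ± 13.5 normalised CPM in the rescue, 86.7 ± 12.6 in the KO and 74.6 ± 8.62 in wild type (SD, n = 2 each). It fell by 1.02 on the log2 scale in the rescue against the KO (SE 0.18, adjusted p = 0.0048), a call lost without the second KO library. The calls of Lrrc55 (1.50, adjusted p = 0.032), Trpc1 (0.59, adjusted p = 0.039) and Atp2b1 (-0.31, adjusted p = 0.027) in that comparison were each lost without the second rescue library and without any 1 of the KO or wild-type libraries.

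Against wild type, the rescue had 0 of 9 partners called higher and 2 lower, 1 of 21 pump or cotransporter genes higher and 3 lower, and 1 of 17 calcium genes higher and 5 lower, where 10.2% of all genes were called higher and 12.0% lower. The 0 partners called higher by edgeR in that comparison were likewise 0 at an unadjusted p under 0.05 and 0 by DESeq2. Atp1b1 fell by 0.81 on the log2 scale (SE 0.18, adjusted p = 0.0074), a call lost without the second wild-type library. Trpv4 fell by 2.00 (SE 0.30, adjusted p = 7.0e-04), a call kept under the alternatives tried. Slc12a2, the sodium-potassium-chloride cotransporter gene of secretory epithelia, fell by 0.44 (SE 0.11, adjusted p = 0.013), and Atp2b1, a calcium pump gene, by 0.33 (SE 0.08, adjusted p = 0.013), both lost without either wild-type library. The call of Cntnap1 (-0.61, adjusted p = 0.024) was also lost without either wild-type library.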

How the data were processed

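Gene counts of 6 RNA-seq libraries were used, with 2 libraries in each of 3 groups taken from the sample titles. The submitters' processing notes list bcl2fastq, STAR 2.0.4b, Subread, featureCounts 1.45 and GRCm38, and no source used here gives the annotation release or strand setting. Per the file headers, the deposited values are counts, CPM and RPKM for each gene. The deposited CPM equalled the count over the library total, and the deposited RPKM that CPM per kilobase of listed length, and they served for the 1 CPM threshold and as checks. Symbols, gene types and exons came from GENCODE M21 (40254 identifiers matched), and 5 non-coding Kcn matches were left out. Start and end were the same as in that release for 45 of the 93 genes, and the chromosome for all 93.

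Counts passing edgeR's filterByExpr (minimum count 10) were scaled by TMM and tested over all 12339 genes with edgeR 4.0.16 (R 4.3.3, quasi-likelihood, 1 mean per group, 3 residual degrees of freedom) with Benjamini-Hochberg adjustment over all genes tested. Adjusted p-values in the text come from this test unless DESeq2 is named, and a gene under 0.05 was called higher or lower. Normalised CPM is the count over the TMM-scaled total. SE is the fold change over the square root of F. The procedure was tested on simulated data. The rule was to name every expressed gene and up to 3 called genes of each other list and comparison, by smallest adjusted p, and some of these are not reported here. The genes and lists were chosen with earlier results of these data known. The epithelial, smooth muscle, neuronal, endothelial, immune and fibroblast marker lists were checked by level. Of the 19 expressed genes 9 share exonic bases with an opposite-strand gene (among them Kcnab1, Kcnab3, Kcne3, Kcnh7, Kcnk2, Kcnn1, Kcnq1, Kcnq5), and without a stated strand setting such reads cannot be told apart. Intervals and floors (3 counts over the group for folds) cover counting error only, except the 95% intervals of fitted fold changes.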

Additional observations from a re-analysis of the deposited data

How the results depend on the processing

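DESeq2, RLE scaling, library totals in place of TMM, no filter, a minimum count of 30, fits of only the groups compared, the replicate number as a block and leaving out each library were tried. For the KO against wild type the number of channel genes called lower stayed within 1.5 times 9 under all of them, and the number called higher was 1 to 3 when 1 library was left out, with 1 (Kcnmb1) without the second KO or the first wild-type library. For the rescue against the KO the number called higher (3) was 6 with no filter, 1 with only the groups compared and 1 with DESeq2 (Kcnk2 in the last 2), and 0 to 5 when 1 library was left out: leaving out rescue library 1 gave 5, leaving out KO library 2 gave 0 and leaving out any 1 of the others gave 1. The number called lower (0) was 1 (Kcnk5) with library totals and 1 (Kcnk5) with no filter, and 0 to 2 when 1 library was left out (2, Kcnd1 and Kcnk5, on leaving out rescue library 1). For the rescue against wild type the number called higher was 1 to 2 and called lower 3 to 6 when 1 library was left out, the 3 being Kcnf1, Kcnn3 and Kcnq1 without the second wild-type library, and 3 (the same genes) were called lower with DESeq2.

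Library totals moved the median log2 fold change of all genes in the KO against wild type to 0.14, against 0.01 with TMM. With the replicate number as a block, 2 genes were called higher and 9 lower for the KO against wild type, 2 and 0 in the rescue against the KO (Kcnf1 lost) and 1 and 4 in the rescue against wild type (Kcnn1 and Kcns3 lost). Deviations of same-numbered libraries correlated at -0.19, -0.15 and 0.04 between pairs of groups, so the numbers are not shown to pair the samples. Thresholds of 0.5 and 2 CPM gave 25 and 15 expressed genes, and TMM-normalised CPM the same 19.

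No channel gene called in a comparison changed direction there. Log2 fold changes that did, all uncalled, were those of Kcne3 in the KO against wild type (-0.0092 with RLE, -0.00093 with only the groups compared, -0.017 with the replicate block, -0.022 with DESeq2, -0.34 to 0.38 without 1 library) and, without 1 library, Kcnk7 in the KO against wild type (-1.28 to 0.15), in the rescue against the KO (-0.49 to 0.93) and in the rescue against wild type (-0.88 to 0.042), and Kcnh2 (-0.26 to 0.58) and Kcnmb1 (-0.32 to 0.15) in the rescue against the KO. In the rescue against wild type Kcnab1 and Kcnn4 had log2 fold changes of 0.036 and 0.054 with library totals. Without 1 library the range was -0.20 to 0.15 for Kcnab1, -0.49 to 0.91 for Kcnab2, -0.17 to 0.40 for Kcnk2, -0.34 to 0.13 for Kcnk5, -0.064 to 0.054 for Kcnn4 and -0.27 to 0.061 for Kcnq5. The causes were not tested. A count of 0 allows a level of up to 3 counts, or 0.251 to 0.400 normalised CPM per library, and differences below it were not detectable at this depth.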
